A study of Mus musculus with 3 samples.

Results

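The let-7 family of microRNAs (miRNAs), with its close relative miR-98, was followed across normal, ICN1-expressing and tumor CD4+CD8+ T cells of the mouse. The family was taken as the 10 array probes named let-7a-e, hsa-let-7a, hsa-let-7b, hsa-let-7c, hsa-let-7d, hsa-let-7e, hsa-let-7f, hsa-let-7g, hsa-let-7i and hsa-miR-98, written without the prefix from here on. They are 10 of 275 probes whose miRNA has a gene in the mouse, and of 1491 probe identifiers in all. The choice used probe names only, and mismatch versions of these probes were kept apart. All 10 were above background on all 3 arrays. The probes carry human names, their sequences are not in the tables used here, and no probe of a let-7 passenger strand is among them.

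Each of the 3 samples was hybridised to 1 two-colour Exiqon miRCURY LNA array. The groups, all on a Balb/c background, were control CD4+CD8+ thymocytes, CD4+CD8+ cells that express ICN1 and are not malignant, and ICN1-expressing CD4+CD8+ tumor cells. ICN1 is the signalling fragment that is released from the receptor NOTCH1 inside the cell, and NOTCH1 activation is a common driver of T-cell acute lymphoblastic leukaemia. The sources used here do not give how ICN1 was introduced, the number and age of the mice, or whether the tumor came from a single animal. Sample RNA was labelled with Hy3, and a pool mixed equally from all 3 samples carried Hy5 on every array. Each group has 1 sample, so groups could not be tested against each other and every difference is a description of 3 arrays.

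Mature let-7 accumulates as cells differentiate and represses growth regulators such as RAS, MYC and HMGA2 through its seed, the bases near the 5′ end that pair with target mRNAs. Its output is controlled at several steps. MYC represses transcription of several let-7 genes, and the RNA-binding protein LIN28 binds the precursor loop and recruits an enzyme that adds uridines to it, which blocks processing in embryonic and some tumor cells. In lymphocytes let-7 levels are known to influence the development and effector programmes of T cells.

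The mature mouse sequences are shown because the family shares its seed and differs at few other positions, which bears on how separately the probes can read its members. They come from RefSeq (GRCm38.p6), run 5′ to 3′, and have the seed (bases 2 to 8) in capitals.
let-7a: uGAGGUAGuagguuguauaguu
let-7b: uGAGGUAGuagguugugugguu
let-7c: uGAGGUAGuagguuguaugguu
let-7d: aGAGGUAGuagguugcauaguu
let-7e: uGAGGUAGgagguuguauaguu
let-7f: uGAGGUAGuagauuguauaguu
let-7g: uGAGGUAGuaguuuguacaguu
let-7i: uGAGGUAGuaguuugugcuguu
miR-98: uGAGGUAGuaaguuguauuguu

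All 9 sequences are 22 bases long and have the same seed, GAGGUAG. The 36 pairs differ at 1 to 6 positions. Counted from 1 at the 5′ end and with the let-7a base first, let-7c differs from let-7a by A19G alone, let-7e by U9G and let-7f by G12A. let-7b differs by A17G and A19G, let-7d by U1A and U16C, let-7g by G12U and U18C, and miR-98 by G11A and A19U. let-7i is the most distant from let-7a, with G12U, A17G, U18C and A19U.

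These miRNAs are made from 12 mouse hairpin genes. let-7a, let-7d and let-7f are encoded side by side on the minus strand of chromosome 13, with mature let-7d at chr13:48536078-48536099, let-7f at chr13:48537889-48537910 and let-7a at chr13:48538239-48538260. let-7c and let-7b lie together on the plus strand of chromosome 15, at chr15:85706616-85706637 and chr15:85707325-85707346, within the span of the long non-coding RNA gene Lncppara. Second copies of let-7f (chrX:151912353-151912374) and of let-7c (chr16:77599672-77599693) lie elsewhere, the former beside miR-98 (chrX:151913229-151913250) within the protein-coding gene Huwe1. let-7g (chr9:106178846-106178867) lies within Wdr82, and let-7e (chr17:17830366-17830387) within Spaca6, beside the genes of miR-99b and miR-125a. No other annotated gene overlaps let-7i (chr10:122985698-122985719). Since a mature miRNA read by a probe can come from more than 1 gene, the array does not tell the copies of let-7a, let-7c or let-7f apart.

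In non-malignant ICN1 cells the let-7 probes read a little lower than in control thymocytes, and in tumor cells lower again. In bulk RNA fewer cells of a type and less RNA per cell cannot be told apart. Signal here is the Hy3 signal mean minus the local background median, in intensity units, given as mean ± SD over 4 replicate spots of 1 array, so the error covers spots and not animals. Levels of different probes are not compared with each other, because probes bind with different strength.

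let-7a, the family's founding sequence, gave a signal of 9229 ± 162 in control thymocytes, 6002 ± 406 in non-malignant ICN1 cells and 1805 ± 105.5 in tumor cells. The probe named let-7a-e, whose target the tables do not describe, gave 10615 ± 165, 6567 ± 486 and 2186 ± 94.5 in the same order. On both probes the control array was highest and the tumor array lowest, with no overlap between spots of different arrays. Counts of members take both as separate, although they may read the same miRNA.

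let-7b gave 5821 ± 127 for control, 4017 ± 138 for non-malignant and 1660 ± 186 for tumor cells. Its chromosome 15 neighbour let-7c gave 8996 ± 65.6, 6260 ± 209 and 2953 ± 227. let-7i gave 3525 ± 70.5, 2201 ± 170.5 and 892 ± 18.5. Again the arrays came in the order control, non-malignant, tumor for each of these probes.

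The remaining probes were dimmer. let-7d gave 697 ± 25.3 for control, 425 ± 31.5 for non-malignant and 212 ± 14.9 for tumor cells. let-7e gave 391 ± 18.4, 257 ± 30.1 and 130 ± 14.4. let-7g gave 380.0 ± 10.99, 260 ± 24.8 and 135 ± 7.4. These 3 probes repeated the order of the brighter ones.

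miR-98 had a flatter profile, with 343 ± 3.6 for control, 256 ± 9.4 for non-malignant and 179 ± 2.0 for tumor cells. let-7f lay nearest to the background, with 93.3 ± 4.7 for control, 53.2 ± 3.8 over 3 usable spots for non-malignant and 47.5 ± 6.3 for tumor cells. Its spots on the tumor array ran from 39.1 to 54.2 and those on the non-malignant array from 49.3 to 56.8, so these arrays overlapped for let-7f.

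Every Hy3 spot of the tumor array lay below every spot of the control array for 10 of 10 members, as it did for 68.0% of 178 mouse miRNA probes detected on either array. A probe counted as detected where at least 50% of its usable spots had a Hy3 signal above the background median plus 2 background SDs. Between non-malignant and control cells the same held for 10 of 10 members against 58.9% of 168 probes. Between tumor and non-malignant cells it held for 9 of 10 members, all but let-7f, against 55.1% of 176 probes. The Hy3 signal of the tumor array was lower in general, with a median log2 difference from control of -0.60 over all detected mouse miRNA probes and -1.66 over the members.

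**Figure D1:**
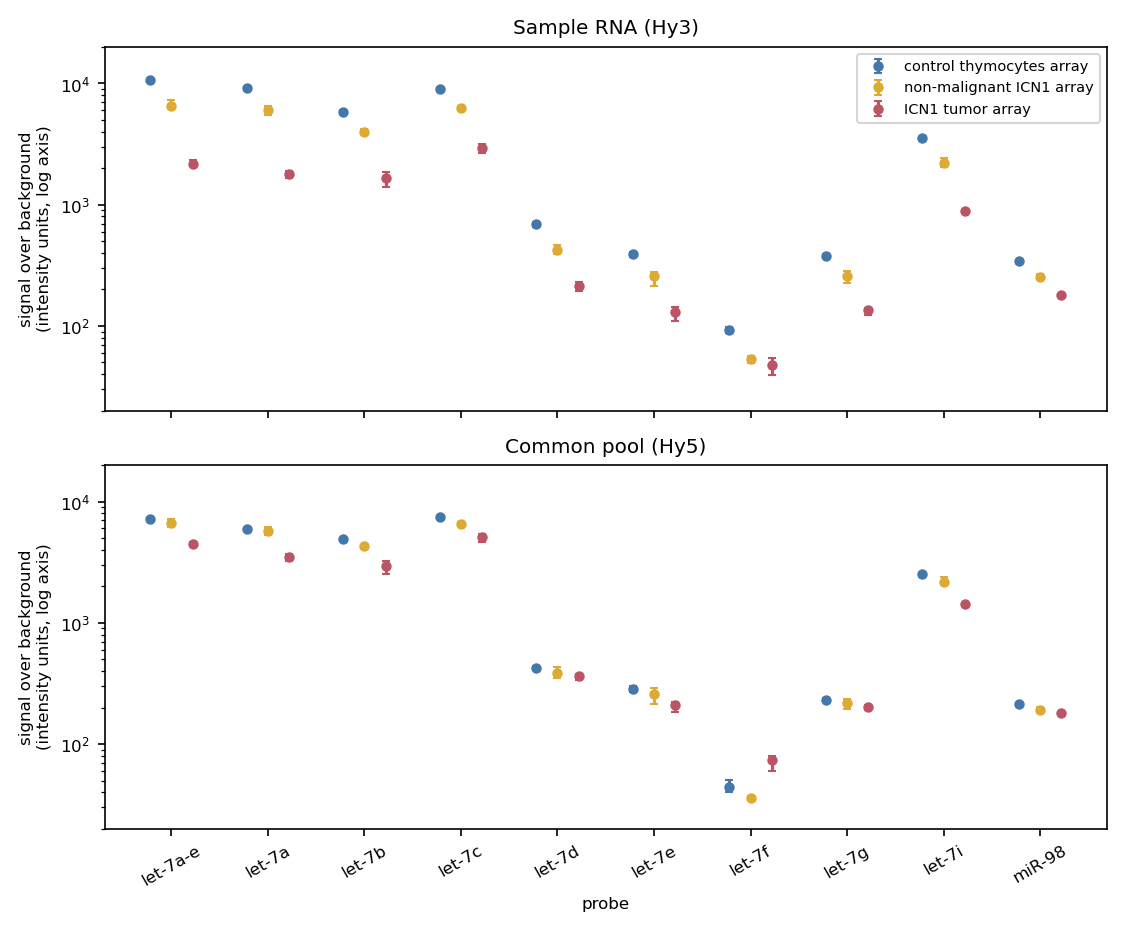
Signal over background (intensity units, log axis) of the 10 let-7 and miR-98 probes in the sample channel (top) and in the common pool (bottom), with points for the mean of the replicate spots and bars from the lowest to the highest spot. In the sample channel let-7a runs from 9229 on the control array to 1805 on the tumor array, while its pool signal runs from 5898 to 3517.

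The pool is the same RNA on every array, so its Hy5 signal at the same spots shows how far the arrays differ with no difference in RNA. For let-7a the pool signal was 5898 ± 66.7 for control, 5765 ± 348 for non-malignant and 3517 ± 191 for tumor cells. Across the members the median log2 difference of the pool between the tumor and control arrays was -0.50, the same to 2 decimals as over all detected mouse miRNA probes. Single members apart from let-7f ran from -0.82 for let-7i to -0.18 for let-7g. let-7f lay outside this range, with a pool signal of 44.1 ± 4.5, 35.7 ± 1.4 and 73.4 ± 8.9, which was higher on the tumor array by 0.74 on the log2 scale. Its ratio therefore rests on few intensity units over background in both dyes.

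Ratios of sample to pool take out the part of these differences that both dyes share. After background correction and loess normalization, log2(Hy3/Hy5) was above 0 for 10 of 10 members on the control array, with a range from 0.19 for let-7f to 0.79 for let-7a. On the non-malignant array it was above 0 for 8 members, with let-7e at -0.01 and let-7f at -0.18 as the exceptions. On the tumor array it was above 0 for 1 member, miR-98 at 0.11, and let-7a-e was the lowest at -0.72. The order control, non-malignant, tumor was kept by all 10 ratios. The mean of a member's 3 linear ratios, which would be 1 if the pool were an exact equal mixture and the scaling were exact, ran from 0.92 for let-7f to 1.23 for miR-98, with a median of 1.13.

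The first comparison asked whether ICN1 expression without malignancy goes with a different let-7 level. All 10 members lay below 0 in non-malignant minus control cells, as did 58.3% of the 168 detected probes, and none was 2-fold lower, which 1.79% of probes were, or 2-fold higher, which 4.17% were. The member median was -0.36 and the median over all detected mouse miRNA probes -0.03. let-7a (-0.50 ± 0.013, SE over spots) and let-7a-e (-0.50 ± 0.0099) were the lowest, followed by let-7d (-0.48 ± 0.017). These 3 did not differ beyond 2 standard errors between neighbours. let-7i followed at -0.41 ± 0.0085, let-7f at -0.38 ± 0.030, let-7e at -0.34 ± 0.0100 and let-7g at -0.34 ± 0.020, again with no step beyond 2 standard errors among them. let-7b (-0.27 ± 0.013) and let-7c (-0.26 ± 0.011) formed the next pair, and miR-98 lay nearest to 0 at -0.18 ± 0.0092. The member median was -0.20 with median centring, beside 0.10 over all detected probes. It was -0.13 under loess fitted on mouse miRNA probes only, where let-7b and let-7c lay above 0, at 0.09 and 0.12.

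The second comparison set tumor cells against control thymocytes. let-7a was 2.73-fold lower (-1.45 ± 0.013) and let-7a-e was 2.73-fold lower as well (-1.45 ± 0.010). let-7d was 2.16-fold lower (-1.11 ± 0.021), and let-7i was just inside 2-fold at 1.98-fold lower (-0.99 ± 0.0044). These made 3 of 10 members at 2-fold lower, with let-7a and let-7a-e counted separately, against 14.6% of the 178 detected probes. None of the members was 2-fold higher, as 0.562% of probes were. Of other probes detected on any array, 20 had a mean log2 intensity of 10 or more on the control array and 149 less. Their medians were -0.45 and -0.06, and the share at 2-fold lower was not taken by brightness. The count of 3 became 5 with background subtracted, 6 from Hy3 alone and 7 without normalization, where 23.6%, 15.7% and 18.5% of detected probes were 2-fold lower. All 10 members lay below 0, as did 64.6% of the detected probes, and the member median was -0.92 beside -0.12 over all of them.

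The other members spread over a wide range in this comparison. let-7c (-0.92 ± 0.011) and let-7b (-0.91 ± 0.013) did not differ beyond spot error. let-7g (-0.85 ± 0.0089), let-7e (-0.73 ± 0.020) and let-7f (-0.65 ± 0.025) followed, with steps between them beyond 2 standard errors. miR-98 was again nearest to 0, 1.29-fold lower (-0.37 ± 0.014). With loess on mouse miRNA probes the member median was -0.29, none was 2-fold lower, and the values of let-7c (0.28), let-7b (0.10) and miR-98 (0.07) were above 0.

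The third comparison set tumor cells against non-malignant ICN1 cells, and shares an array with each of the others. Its member median was -0.60, beside -0.08 over 176 detected probes. All 10 members lay below 0, as did 68.8% of the probes, and none was 2-fold lower, which 9.66% were, or 2-fold higher, which 0.568% were. let-7a-e (-0.95 ± 0.012) and let-7a (-0.95 ± 0.010) were lowest. After a step beyond 2 standard errors came let-7c (-0.66 ± 0.0087), let-7b (-0.65 ± 0.015) and let-7d (-0.63 ± 0.016), with no such step among them. let-7i was at -0.58 ± 0.0076, let-7g at -0.51 ± 0.021, let-7e at -0.39 ± 0.020, let-7f at -0.28 ± 0.037 and miR-98 at -0.18 ± 0.016. The number of members 2-fold lower was 1 with print-tip loess, 2 with spike-in centring and 2 with the Hy3 channel alone. In these settings 9.09%, 10.8% and 10.8% of all detected probes were 2-fold lower, and the count of 1 is near its share. With loess on mouse miRNA probes the member median was -0.12 and the values of let-7c (0.17), miR-98 (0.08) and let-7b (0.01) were above 0, and with the Hy3 channel alone let-7f did, at 0.22.

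**Figure D2:**
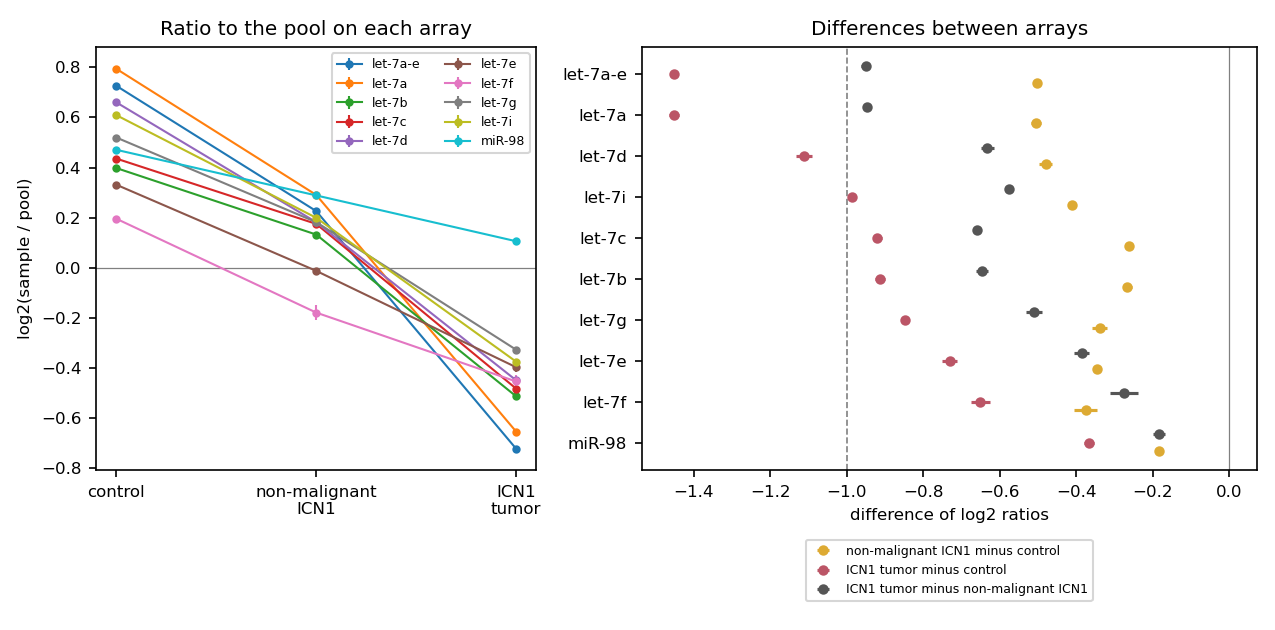
Left, log2 ratio of sample to pool for each of the 10 probes on the 3 arrays. Right, differences of these ratios for the 3 comparisons, with bars for the standard error over replicate spots and a dashed line at 2-fold lower. let-7a and let-7a-e lie at -1.45 in tumor minus control and miR-98 at -0.37.

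Within the family, a shift of a whole array leaves contrasts between members unchanged. The settings without normalization, with median centring and with spike-in centring therefore share the same contrasts. Other settings moved the contrasts, in tumor minus control from -1.73 to 0.06 for let-7a with let-7f. The let-7f difference itself ran from -1.30 to -0.13. In tumor minus control the contrast of let-7a with let-7c, from which it differs by A19G alone, was -0.53 ± 0.017 on the log2 scale. let-7a was lower than let-7c in 12 of 12 alternative scalings and spot treatments, with contrasts from -0.73 to -0.41. These 12 count the settings with equal contrasts separately. Against let-7b the contrast was -0.54 ± 0.018 (-0.84 to -0.48 over the alternatives), and against miR-98 it was -1.08 ± 0.019 (-1.53 to -0.45). let-7a was also lower than let-7e and let-7i in 12 of 12 alternatives. It was lower than let-7f and let-7g in 11 of them and lower than let-7d in 10. With loess on mouse miRNA probes let-7a was at -0.38, above let-7d at -0.63 and let-7g at -0.40. With background subtracted it was at -1.24, above let-7d at -1.28 and let-7f at -1.30. These contrasts are between probes of different brightness, and brightness is what loess acts on. The pool signal itself, in tumor minus control, was at -0.75 for let-7a, -0.74 for let-7b, -0.54 for let-7c and -0.25 for miR-98. The standard errors over spots do not cover what the ratios leave of such differences.

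The members can also be listed by gene cluster, although a value of let-7a, let-7c or let-7f cannot be assigned to a single gene copy. Of the chromosome 13 cluster, let-7a, let-7d and let-7f were at -1.45, -1.11 and -0.65 in tumor minus control cells. The chromosome 15 pair let-7c and let-7b lay close together at -0.92 and -0.91, and the chromosome X pair let-7f and miR-98 lay at -0.65 and -0.37. let-7b and let-7c differ at 1 position, and how much signal their probes share was not tested. let-7e was at -0.73, while miR-125a, whose gene lies within 10000 bases of let-7e, was at 0.00057 ± 0.011, with a signal of 1343 in control, 1104 in non-malignant and 511 in tumor cells. Its other neighbour miR-99b was not detected on any array, and neither were miR-99a and miR-100, whose genes lie near let-7c and let-7a copies. miR-125b, which is processed from transcripts shared with let-7 genes, was at 0.03 ± 0.017. Of these 5 neighbours, 2 were detected and none was 2-fold lower or higher, with medians of 0.04, 0.01 and -0.03 in the 3 comparisons.

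LIN28 recognises the letters GGAG in precursor loops, so the hairpins were searched for them on the transcribed strand. They occurred in 9 of the 12 let-7 and miR-98 hairpins, and in 44.8% of 288 mouse hairpins of 83 to 108 bases. The hairpins of let-7b, miR-98 and the chromosome 15 copy of let-7c do not hold these letters. Below are a hairpin with the letters, in capitals, and 3 without them.
Mirlet7a-1: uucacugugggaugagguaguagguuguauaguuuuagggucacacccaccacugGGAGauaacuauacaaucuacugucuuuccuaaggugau
Mirlet7c-2: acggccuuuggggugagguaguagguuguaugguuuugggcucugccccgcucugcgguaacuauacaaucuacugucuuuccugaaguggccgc
Mirlet7b: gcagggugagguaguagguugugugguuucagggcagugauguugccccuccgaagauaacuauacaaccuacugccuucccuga
Mir98: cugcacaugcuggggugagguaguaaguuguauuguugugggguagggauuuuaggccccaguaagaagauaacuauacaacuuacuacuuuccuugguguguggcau

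The hairpins lie at chr13:48538179-48538272 on the minus strand, and at chr15:85706603-85706697, chr15:85707319-85707403 and chrX:151913214-151913321 on the plus strand. let-7c has a further hairpin on chromosome 16 that does hold GGAG, and a letter match is no evidence that LIN28 acts in these cells. Of the other miRNAs known for this motif in their precursors, miR-107 differed by -0.41 ± 0.015 and miR-200c by -0.06 ± 0.026 in tumor minus control. miR-143 was not detected.

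miRNAs that MYC is known to repress were examined next. Of the 17 other miRNAs on that list, all 17 lay below 0 in tumor minus control and 7 were 2-fold lower, with a median of -0.97. Over all detected probes 64.6% lay below 0 and 14.6% were 2-fold lower. The 3 lowest were miR-26a, a repressor of EZH2, at -2.21 ± 0.022, miR-16, a repressor of BCL2, at -2.09 ± 0.0069, and miR-26b at -1.46 ± 0.035. In non-malignant minus control 14 of 16 detected members of the list lay below 0 and 1 was 2-fold lower, with a median of -0.24, beside 58.3% and 1.79% of all detected probes. In tumor minus non-malignant cells all 17 lay below 0 and 2 were 2-fold lower, with a median of -0.71, beside 68.8% and 9.66% of all detected probes, and the 2-fold count is near that share.

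The 5 probes whose differences from control lay closest to the member medians were miR-30a-5p, miR-15a, miR-486, miR-30c and miR-30d, out of 169 other detected probes. Closeness was the Euclidean distance over the non-malignant and tumor differences from control, hence over 3 arrays. All but miR-486, an erythroid marker, are also on the list of MYC-repressed miRNAs. miR-30a-5p, at a distance of 0.11, differed by -0.26 ± 0.022 in non-malignant and -0.97 ± 0.019 in tumor cells. The distances of miR-15a, miR-486, miR-30c and miR-30d were 0.13, 0.17, 0.17 and 0.22.

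**Figure D3:**
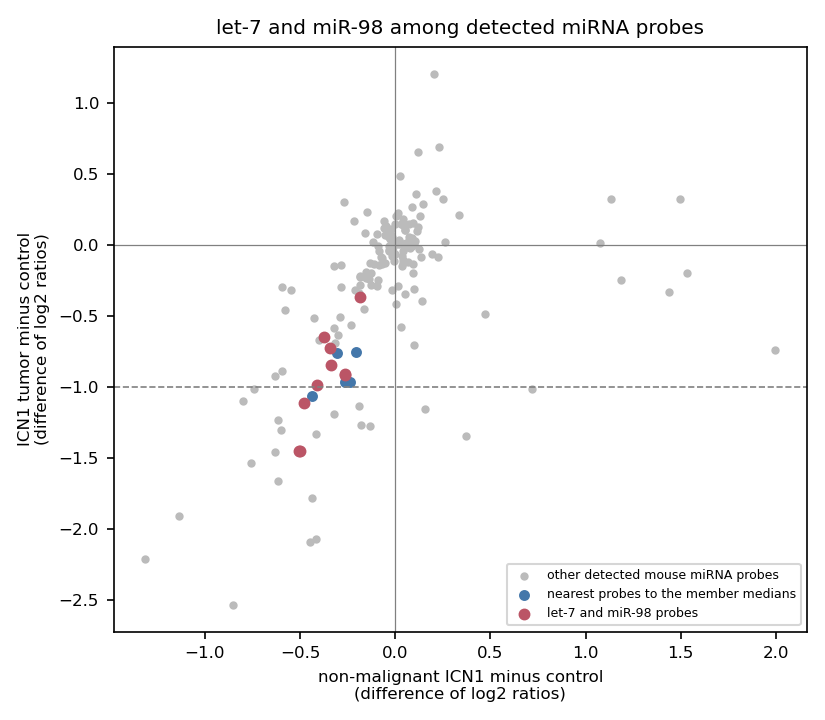
Difference from control in non-malignant ICN1 cells (horizontal) and in ICN1 tumor cells (vertical) for detected mouse miRNA probes, as differences of log2 ratios, with a dashed line at 2-fold lower in tumor cells. miR-451, at -6.13 in tumor minus control, is outside the plotted range, and the 10 let-7 and miR-98 probes all lie in the lower left part.

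Signal of let-7 relatives can be shared between probes. The array holds 8 mismatch probes for let-7a, let-7c, let-7d, let-7f and let-7g, and the position of the altered base is not in the tables. In tumor minus control, 7 of the 8 lay below 0 and 2 were 2-fold lower, with a median of -0.88 beside -0.92 for the 10 members. Of all detected mouse miRNA probes 64.6% lay below 0 and 14.6% were 2-fold lower. The brightest, a let-7a mismatch probe with a signal of 1865 ± 46.3 on the control array and 532 ± 17.95 on the tumor array, differed by -1.39 ± 0.0057. A let-7f mismatch probe differed by -0.91 ± 0.0086, further from 0 than the let-7f probe itself. The signal of this mismatch probe was 353 on the control array and 208 on the tumor array, and that of the let-7f probe 93.3 and 47.5. Probes bind with different strength, so these levels do not rank the targets. The 1 mismatch probe above 0, for let-7g at 0.02 ± 0.036, had a pool signal below the local background on every array. How much of a member's signal comes from its relatives was not tested.

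miRNAs that mark cell types also differed between the arrays. The erythroid markers miR-451, miR-144 and miR-486 were all detected on every array, and their summed Hy3 signal was 24002 in control, 11753 in non-malignant and 642 in tumor cells. Nearly all of it was miR-451, at 23628, 11409 and 505, while miR-144 was higher in non-malignant cells, at 89.1, 147 and 31.6, with a ratio difference from control of 0.72 ± 0.020 there and -1.02 ± 0.020 in tumor cells. The sum for the miR-142 arms, found in all blood cells, was 21372, 16843 and 7457, and that of miR-181a, a thymocyte miRNA, 175, 80.9 and 43.8. miR-181a differed by -1.24 ± 0.025 in tumor minus control, and miR-142-5p by -1.78 ± 0.011. Myeloid miR-223 had a signal of 164, 366 and 65.1, and miR-150, of mature lymphocytes, 44.4, 24.8 and 18.7, not detected in tumor cells. Stromal markers summed to 2223, 1796 and 1502, with miR-143 and miR-199a not detected on any array. Nearly all of this sum was miR-214, at 2177, 1772 and 1475, while miR-145 was at 28.3, 23.9 and 26.7. These sums are not scaled between arrays, and in ratios the detected stromal markers had medians of 0.05 in non-malignant and -0.02 in tumor cells relative to control. Epithelial markers summed to 151, 161 and 146, with miR-205 not detected on any array. Of the muscle and liver markers 3 of 4 had a probe of their own, summing to 120, 87.1 and 128. This sum includes miR-206, at 26.0, 22.7 and 56.1, which was not detected on any array. It leaves out miR-133a, which shares a probe with miR-133b that was at 0.02 ± 0.031 in tumor minus control. The part of these cell types in the let-7 differences was not tested.

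Brightness also goes with the size of the differences. let-7a, let-7a-e, let-7b, let-7c and let-7i were 5 of 25 detected mouse miRNA probes with a mean log2 intensity of 10 or more on the control array. Their median in tumor minus control was -0.99 beside -0.45 for the 20 other bright probes. The 5 dimmer members had a median of -0.73 beside -0.06 for 149 other dimmer probes. With loess on mouse miRNA probes these medians were -0.19 beside 0.31 for the bright probes and -0.36 beside 0.05 for the dimmer ones. The member median thus stayed below that of the other probes in both classes while its distance from 0 shrank. This does not hold for every member, since miR-98, a dimmer one, was at 0.07 in that setting. The part of brightness in the let-7 differences was not tested.

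**Figure D4:**
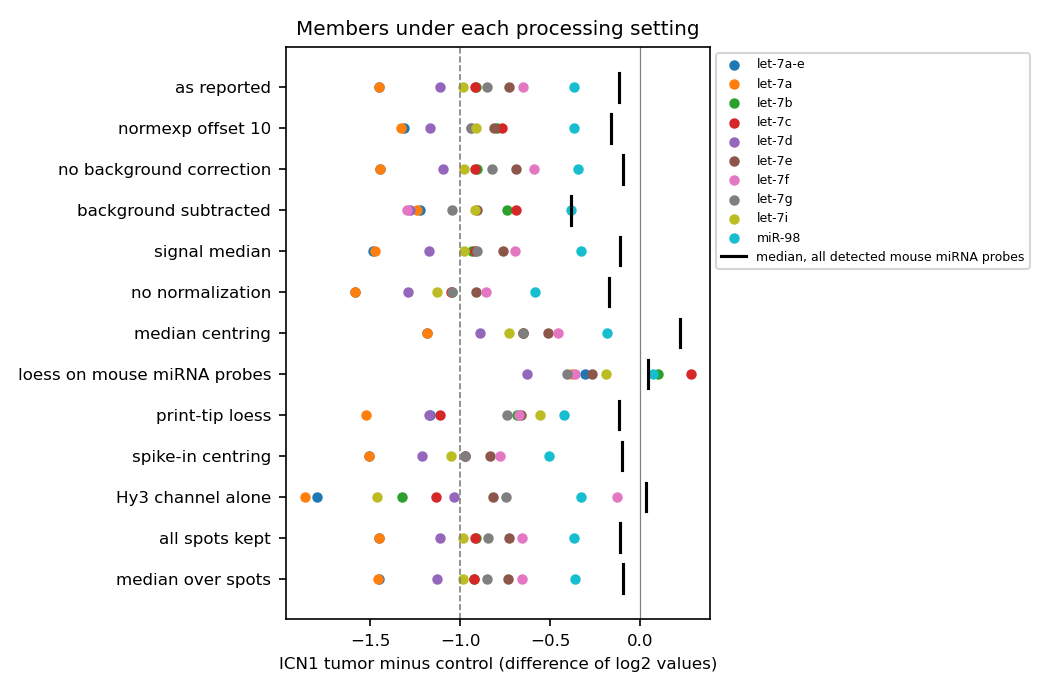
Difference between ICN1 tumor and control cells for the 10 members under the reported setting and 12 alternatives (differences of log2 values), with a black bar at the median of all detected mouse miRNA probes. With loess on mouse miRNA probes 3 members lie above 0, let-7c at 0.28, let-7b at 0.10 and miR-98 at 0.07.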

How the data were processed

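Total RNA was purified with Trizol and labelled with Hy3 (samples) or Hy5 (pool), per the labels. The deposited scanner tables give each spot's signal and background as a linear intensity without normalization, per the file headers. The deposited tables also give every spot a flag, used here as a score of spot quality. The sources used here do not give the scanner or software. Spots with flag 3 were left out, 1 of them a member spot (let-7f, non-malignant array). Signal means were corrected by normexp (offset 50), log2(Hy3/Hy5) was normalized by global loess in limma 3.58.1 (R 4.3.3), in which control, spike-in and mismatch spots had weight 0, and averaged over spots. The fit thus used 736 probes named as having no known human target and 176 human miRNA probes without a mouse match. It also used 151 probes named miRPlus and the 275 mouse miRNA probes. Loess on mouse miRNA probes was fitted on the last of these classes only. The procedure was checked on simulated data in which equal numbers of probes were raised and lowered. That check does not cover differences that lie mostly on the lower side, as in tumor minus control. Tables and figures were made with matplotlib 3.10.9, numpy 2.4.6 and pandas 2.3.3 under Python 3.11.15. The median Hy3 background was 77, 82 and 70 units on the control, non-malignant and tumor arrays, and no member spot was saturated. The number of arrays limits the precision.

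Probes were matched to mouse genes by name in RefSeq (GRCm38.p6). All 10 members are named, and other miRNAs come from lists of let-7 neighbours, LIN28-motif miRNAs, MYC-repressed miRNAs and cell markers, of which the MYC list's 3 lowest are named, and from the 5 nearest profiles. Members and lists were chosen with earlier results of these data known. The authors' value table was not used, since its row numbers do not match the probes. Alternatives covered background, signal column, normalization, reference, spots and detection.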

Additional observations from a re-analysis of the deposited data

How the results depend on the processing

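The member median was below 0 in all 3 comparisons under the 12 alternatives that could change it. The alternatives on detection could not, because every member was detected on all 3 arrays. In the order non-malignant minus control, tumor minus control and tumor minus non-malignant, it was -0.13, -0.29 and -0.12 when loess used mouse miRNA probes alone, -0.20, -0.65 and -0.51 with median centring, -0.42, -1.05 and -0.69 without normalization, and -0.33, -0.97 and -0.70 with spike-in centring. It was -0.44 and -1.09 with the Hy3 channel alone in the first 2 comparisons, -0.71 and -0.45 with print-tip loess in the last 2, and -0.98 with background subtracted in tumor minus control. The loess on mouse probes moved the median of all these probes in tumor minus control from -0.12 to 0.04. Relative to that median the members lay at -0.80 as reported and at -0.33 in this setting. Median centring moved it to 0.22, and relative to it the members lay at -0.88. In tumor minus non-malignant cells the members lay relative to that median at -0.52 as reported and at -0.61 with median centring. The cause of these moves was not tested.

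The number of members 2-fold lower in tumor minus control, 3 as reported, was 0 with the loess on mouse probes, 5 with background subtracted, 6 from Hy3 alone and 7 without normalization. Over all detected probes it was 26 as reported, and 9, 42, 28 and 33 in these settings. With median centring it was 2 for the members and 16 over all detected probes. With print-tip loess it was 4 and 27, and with spike-in centring 4 and 29. Over all probes in tumor minus non-malignant cells it was 17 as reported, 29 with background subtracted and 11 with median centring, and in non-malignant minus control 3, 7 with background subtracted and 1 with the loess on mouse probes. The number of members in tumor minus non-malignant cells, 0 as reported, was 1 with print-tip loess, 2 with spike-in centring and 2 with the Hy3 channel alone. The shares over all detected probes in these settings were 9.09%, 10.8% and 10.8%. Signal near background limits let-7f. No paired analysis was possible because each group has 1 sample.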
